A study of Mus musculus with 8 samples.

Results

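The miRNAs described here are the 5p arms numbered miR-6896 to miR-7094 on a mouse miRNA microarray. The rule that picks them goes by name: every mouse probe set whose name had a number in that range and the ending 5p, a letter after the number allowed. The rule itself uses no measured value, although the range was proposed with earlier results of these data known. The rule found 200 of the 1881 mouse miRNAs on the array, read by 410 of its 4415 probes. The array also held the 3p arms of the same numbers (414 probes) and 1482 other mouse miRNAs, which serve as the comparison. The mice were C57BL/6 males, 8 weeks old, and total RNA was taken from the kidney 7 days after surgery. In the UUO group 1 ureter had been tied off (unilateral ureteral obstruction, a model of obstructive kidney injury and fibrosis), and the Sham group had the operation without the obstruction. Each group held 4 samples, Sham 1, 2, 3 and 8 and UUO 1 to 4, each hybridised to 1 array. The labels name no transgene, other agent, or uninjured control, and do not say whether RNA of several mice was pooled, so p-values measure the spread between these samples.

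A mirtron is a short intron that folds into a hairpin. The spliceosome, not the nuclease Drosha, cuts out the precursor, and Dicer then cuts the debranched intron into a 5p and a 3p arm. Mammalian mirtrons tend to have G-rich 5p arms and C-rich, pyrimidine-rich 3p arms, since the 3p arm carries the polypyrimidine tract and the AG of the 3′ splice site. Most of the high-numbered miRNAs in this range came into the databases as predicted mirtrons, and for most of them little is known of what they do.

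Sequences and places were taken from RefSeq (GRCm38.p6), which held the mature form of 176 of the 200 members. A precursor was listed for 171 hairpins, and 158 of them (92.4%) ended in AG, as an intron does, against 69 of 823 other mouse hairpins (8.38%). The other end was less intron-like as listed: 26 precursors (15.2%) began with GU, against 6.08% of the others. The median precursor was 66 bases long, against 82 for the rest. In all, 151 of the matched members (85.8%) lay within the span of a protein-coding gene on the same strand. The table gives gene spans without exons, so intron and exon could not be told apart. By the AG end, the length and the place in a gene, most members fit the name of the series, and by the GU start most do not.

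The sequences of the members whose change between the groups is described in detail are shown 5′ to 3′ with the seed, bases 2 to 8, in capitals, because the seed sets which messages a miRNA can pair with. The first set was higher in UUO and the second lower.

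miR-6898-5p: uGUAAGGGgagaugcagggagc
miR-7005-5p: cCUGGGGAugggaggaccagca
miR-7036a-5p: aGCGGGGUucgguggggaagaga
miR-6931-5p: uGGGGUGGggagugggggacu
miR-7015-5p: uCUGUGCAguaggcuguggguuc
miR-7033-5p: uCUCCAGGagucugaggggcagg

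miR-7080-5p: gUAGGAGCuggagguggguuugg
miR-6904-5p: uCCUGGGGuuagaguugagugg
miR-6975-5p: gCUGGGGAgaaagggguuuggca
miR-7020-5p: uGGGAUGGuggagagggugaccag
miR-6978-5p: aAGGGGUGagagagaagcuggug

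G is the commonest base in these strands: the matched members had a median of 43.7% G, and those detected on at least 4 arrays 51.0%. Seeds were mostly private to 1 member. Of the 176 matched members, 39 shared theirs with another member or another mouse miRNA. miR-6975-5p and miR-7005-5p both carry CUGGGGA: the first was called lower in UUO and the second higher. miR-6965-5p, called lower, and miR-7047-5p, called higher, share GAGGGAG. For these pairs the call of miR-7005-5p, miR-6965-5p and miR-7047-5p depended on the scaling, as given below. miR-6975-5p was tested only because it was detected in Sham, so its call is no support for a difference. Whether a shared seed goes with a shared direction was not tested.

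Values are scaled intensities. A probe's processed signal, which the scanning software had corrected for background, was multiplied by 1 factor per array so that the 75th percentile of the 623 probes detected on all 8 arrays was the same everywhere. A probe counted as detected on an array when over 50% of its spots were well above background. Where a miRNA had several probes, the one with the highest mean was used, and signals under 14.6, the floor of detection, were set to that value before logs were taken. Levels of different miRNAs cannot be compared, since their probes differ.

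All 8 arrays lay on 1 slide, with the Sham samples in its first row and the UUO samples in its second, so slide row and surgery cannot be told apart. The arrays detected 720 to 800 probes each, and saturated spots were absent. Kidney epithelial miRNAs were detected on every array (6 of 6), as fits the labelled tissue, and their summed scaled intensity was 21682 to 23322 in Sham and 13717 to 15918 in UUO, with 4 of 6 called lower. All 5 leukocyte miRNAs were called higher, with sums of 713 to 816 in Sham and 3002 to 3408 in UUO, and all 3 fibroblast miRNAs likewise, from 1285 to 1453 up to 4677 to 5600. In whole tissue, fewer cells of a type and less RNA per cell cannot be told apart, and the part of this shift in cells in the members' results was not tested. 2 arrays stood apart among the members, Sham 1 and UUO 2, and their effect is given with the results.

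Most of the series was below detection in these kidneys, as were most other miRNAs. Of the 200 members, 71.0% were detected on no array, beside 71.7% of the 1482 other miRNAs, 12 on 1 to 3, and 46 (23.0%) on at least 4, of which 32 were detected on all 8. The Sham arrays detected 46, 46, 49 and 51 members (Sham 1, 2, 3 and 8), and the UUO arrays 42, 35, 46 and 46 (UUO 1 to 4). The group means were 48.0 ± 2.45 (SD, n = 4) and 42.25 ± 5.19 (SD, n = 4), and the ranges overlapped at 46. The other 1482 miRNAs went the other way, from a mean of 341 detected in Sham to 365.5 in UUO. Leaving out 9 members that were detected in Sham and on no UUO array, described below, the counts were 43, 37, 40 and 42 in Sham and 42, 35, 46 and 46 in UUO. As these 9 were picked by that pattern, leaving them out could lower the Sham counts alone, and the smaller gap is no finding.

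The 2 arms of these hairpins were seen very unequally. Among 198 numbers with both arms on the array, 45 had only the 5p arm detected on at least 4 arrays, 1 only the 3p arm, none both, and 152 neither. The exception was miR-7022-3p, whose scaled intensity ran from 15.4 to 20.7 over the 8 arrays, just above the floor, while miR-7022-5p was not detected on any. In all, 1 of the 3p arms (0.503%) was detected on at least 4 arrays, against 361 of the 1482 other miRNAs (24.4%), a share like that of the 5p arms. Of the 3p arms of the members named here, miR-6984-3p and miR-7047-3p were each detected on 1 UUO array and no Sham array, and the rest on none.

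Detected and undetected members differed in the base composition of their probes, and most of all in C. Each probe was the exact complement of the 3′ end of its mature miRNA in all 176 members that could be matched, so the C of a probe is the G of the miRNA. Representative probes of the 46 detected members had a median of 53.3% C and 7.69% G, against 40% C and 15.4% G for the members detected on no array. Their GC content was 65.5% against 56.25%. The 3p arms also had a GC content of 56.25%, but 13.3% C and 43.75% G.

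Divided by C content, none of the 22 members with up to 30% C was detected on at least 4 arrays. The share was 5 of 60 (8.33%) between 30% and 40%, 12 of 73 (16.4%) up to 50%, 20 of 34 (58.8%) up to 60%, and 9 of 11 (81.8%) above 60%. Other mouse miRNAs rose along the same scale, from 19.96% to 23.0%, 30.9%, 54.9% and 88.5%. The members' share lay under that of the other miRNAs in each class but the one from 50% to 60%, and these differences were not tested. Of the 3p arms, 185 lay in the lowest class. Divided by GC content, the members' share ended lower, at 10 of 24 (41.7%) in the highest class, beside 40% of the other miRNAs. This is a description across probes that share arrays and labelling, and what the composition of a probe does to its signal was not tested.

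**Figure D1:**
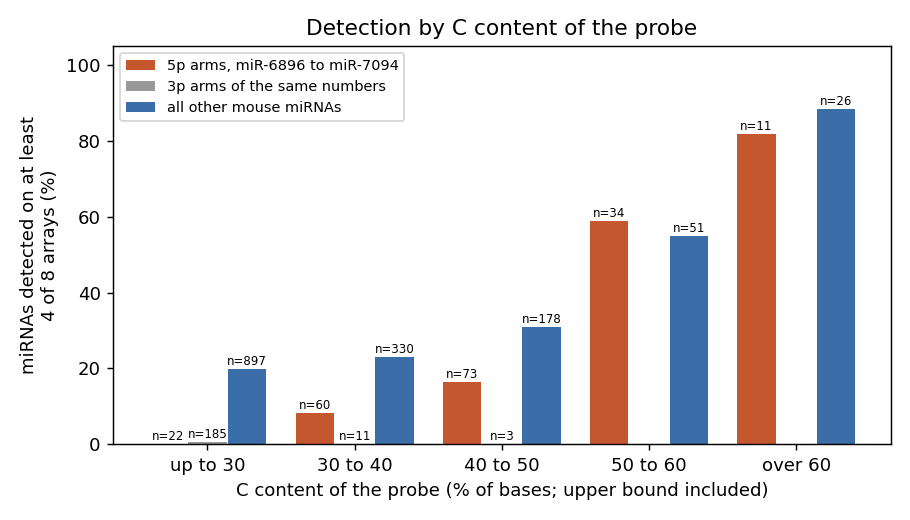
Share of miRNAs detected on at least 4 of 8 arrays (vertical axis, percent) by C content of the representative probe (horizontal axis, 5 classes), for the 200 5p arms, the 3p arms of the same numbers and the 1482 other mouse miRNAs, with the number of miRNAs over each bar. Among the 5p arms the bars rise from 0 of 22 to 9 of 11, and the 3p arms lie almost all in the lowest class.

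The question of the comparison is which miRNAs differ between obstructed and sham-operated kidneys. The 408 miRNAs detected on at least 4 arrays were fitted together with limma, with p-values adjusted over all 408 by Benjamini-Hochberg, and an adjusted p under 0.05 counted as a call. Differences were common: 67.4% of the 408 were called, 39.7% higher and 27.7% lower in UUO. Of the 46 members tested, 14 (30.4%) were called higher and 8 (17.4%) lower, and 24 were not called. Of the 8, 3 passed the filter through the Sham arrays alone. These 46 had passed a filter on detection and do not stand for the 200. The members' median log2 fold change was 0.03, and that of all 408 was 0.06, with the members running from -1.89 to 1.42. Groups did not overlap for 13 members, all of them called, while 61.3% of the 408 did not overlap. A change of at least 2-fold was found for 1 member upward and 3 downward. The 3 downward are those that passed the filter through the Sham arrays alone, and the 1 upward met it only with the UUO arrays. These counts are therefore no support for a difference. The share of all 408 with such a change was not counted.

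Scaling, background correction and the summary of probes each moved the split of 14 members higher and 8 lower. With scaling to the labelled control features it was 21 and 5, beside 58.8% higher and 15.7% lower of all 408. Without scaling it was 18 and 5, beside 52% higher and 18.9% lower, and with the percentile over all probes 18 and 6, beside 47.5% and 20.6%. With quantile normalization it was 6 and 19, beside 30.1% higher and 39.2% lower. With normexp background correction it was 11 and 21, beside 29.9% and 38.2%. The total intensity per miRNA, which also changes the summary of probes and the detection call, gave 7 and 24 of 57 tested members, beside 21.8% and 43.5% of the 499 miRNAs tested. All miRNAs thus moved along with the members: in the same order their median log2 fold change went from 0.06 to 0.34, 0.26, 0.19, -0.04, -0.03 and -0.23. A fit with no filter on detection kept 10 of the 22 calls: miR-7040-5p, miR-6898-5p, miR-7036a-5p, miR-6931-5p, miR-7015-5p, miR-7033-5p and miR-7069-5p higher, and miR-7080-5p, miR-6975-5p and miR-7020-5p lower. The fit with no filter aside, the settings above and the authors' deposited ratio table made 8 in all. In each of these 8, 4 members were called higher (miR-7040-5p, miR-6898-5p, miR-7036a-5p and miR-7015-5p). In each, 5 were called lower (miR-7080-5p, miR-6904-5p, miR-6975-5p, miR-6971-5p and miR-7020-5p). Of these 5, miR-7080-5p, miR-6904-5p and miR-6975-5p passed the filter through the Sham arrays alone, so their calls are no support for a difference. The same holds for miR-7040-5p, which met the filter only with the UUO arrays. The share of all tested miRNAs called in each of the 8 settings was not counted, so 4 and 5 cannot be read as many or few.

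miR-7040-5p had the largest rise. Its scaled intensity was 17.2, 11.9, 11.2 and 15.6 in Sham (replicates 1, 2, 3 and 8, as in all lists that follow) and 34.6, 32.0, 54.9 and 48.2 in UUO (replicates 1 to 4). It was detected on 2 Sham arrays and all 4 UUO arrays, every UUO value was above every Sham value, and the log2 fold change was 1.42 ± 0.17 (SE, limma adjusted p = 0.00016). With the floor doubled it was no longer called (0.50, limma adjusted p = 0.053), and with normexp the change was 0.35. It met the filter of 4 arrays only with the UUO arrays, where it was high. Its Sham 2 and Sham 3 values lay under the floor and were set to it, which narrows the Sham spread. This SE and adjusted p are therefore no support for a difference.

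miR-6898-5p lies at chr1:36348732-36348753 on the minus strand, within the span of Kansl3, which encodes a subunit of the NSL histone acetyltransferase complex. Sham kidneys gave 120.7, 98.5, 97.3 and 99.1, and UUO kidneys 177.7, 194.2, 191.6 and 170.6. The groups were well apart, with little spread in UUO, and the log2 fold change was 0.82 ± 0.08 (SE, limma adjusted p = 5.2e-05). Both of its probes, 15 and 14 bases long, gave nearly the same change, 0.82 and 0.81.

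miR-7036a-5p lies at chr5:137296661-137296683 on the minus strand, within Srrt, whose product joins the nuclear cap-binding complex to small RNA processing. It read 73.3, 57.1, 52.4 and 78.9 in Sham and 122.8, 89.7, 123.1 and 120.7 in UUO. The lowest UUO sample, UUO 2, was still above the highest Sham sample, and the log2 fold change was 0.81 ± 0.16 (SE, limma adjusted p = 0.0023).

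miR-7015-5p was weak but tight. Its values were 21.5, 27.3, 21.8 and 22.8 in Sham and 39.0, 40.5, 40.8 and 36.6 in UUO, with no overlap. The log2 fold change was 0.75 ± 0.08 (SE, limma adjusted p = 8.7e-05). RefSeq places it at chr4:120973295-120973317 on the minus strand, and the table gave no protein-coding gene around it on that strand.

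miR-6931-5p, within Dcakd at chr11:102999896-102999916 on the minus strand, read 188.5, 135.0, 141.3 and 120.1 in Sham and 277.7, 227.9, 217.2 and 294.4 in UUO. The groups did not overlap, the log2 fold change was 0.81 ± 0.16 (SE, limma adjusted p = 0.0020), and 7 of the 8 settings called it. Quantile normalization did not.

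miR-7005-5p lies within Lama5, which encodes a laminin chain of basement membranes, at chr2:180179797-180179818 on the minus strand. Its values were 210.9, 147.8, 119.2 and 109.5 in Sham and 240.6, 205.96, 316.0 and 287.4 in UUO. Sham 1 overlapped the UUO range, and the other 3 Sham samples did not. The log2 fold change was 0.87 ± 0.22 (SE, limma adjusted p = 0.0082), and 1.06 without Sham 1. Quantile normalization, the total intensity, the deposited ratios and the fit with no filter (limma adjusted p = 0.11) ended the call.

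The remaining rises were smaller. miR-7033-5p, within Pom121, a gene for a nuclear pore protein, rose from 37.3 to 49.1 in Sham to 55.4 to 63.9 in UUO, a log2 fold change of 0.48 ± 0.09 (SE, limma adjusted p = 0.0021). miR-7018-5p, within Hspg2, the gene of the basement membrane proteoglycan perlecan, changed by 0.61 ± 0.16 (SE, limma adjusted p = 0.00975), with Sham 1 at 69.9 inside the UUO range and the other Sham samples at 45.1 to 45.7. miR-6984-5p, within Mrpl21, a gene of the mitochondrial ribosome, changed by 0.55 ± 0.17 (SE, limma adjusted p = 0.020). miR-7031-5p, within Sh2b3, an adaptor of cytokine signalling, changed by 0.45 ± 0.16 (SE, limma adjusted p = 0.033). Of these 4, miR-7033-5p alone was without overlap, and the total intensity ended each of the 4 calls. The call of miR-6984-5p was lost without Sham 2, UUO 3 or UUO 4 (0.44 to 0.65 with 1 array left out), and that of miR-7031-5p without Sham 2, Sham 3, Sham 8, UUO 1 or UUO 4 (0.36 to 0.54). miR-6937-5p and miR-7047-5p are given below with the strongest signals, and miR-7044-5p and miR-7069-5p were also called higher. Neither call held with normexp or the floor doubled, and that of miR-7044-5p was also lost with quantile normalization, with no filter and without Sham 2, Sham 3, UUO 1, UUO 3 or UUO 4.

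**Figure D2:**
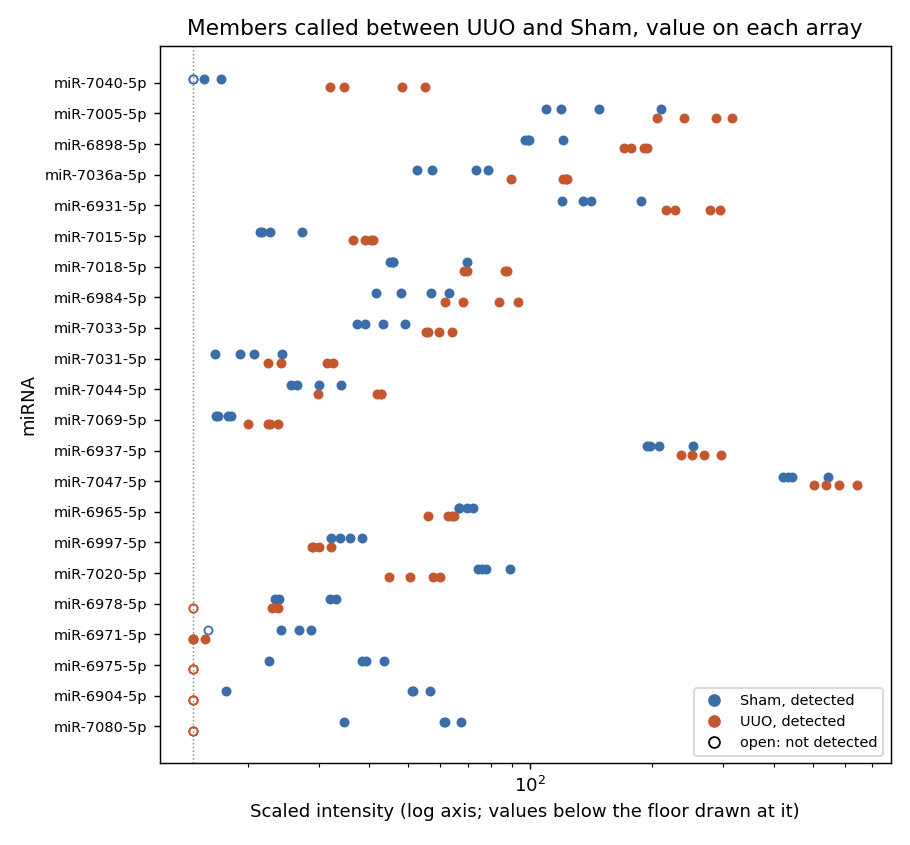
Scaled intensity (horizontal axis, log scale) on each of the 8 arrays for the 22 members called between UUO (4 points) and Sham (4 points), ordered by log2 fold change. Filled points are detected, open points are not, and values under the floor of 14.6 (dotted line) are drawn at it. miR-7040-5p is at the top, and the 3 members at the bottom have all 4 UUO points open and at the floor.

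The largest falls were members that dropped out of detection. miR-7080-5p, at chr8:123130106-123130128 on the plus strand, read 34.6, 61.1, 61.6 and 67.5 in Sham and 2.9, 8.2, 10.2 and 8.1 in UUO. It was detected on all 4 Sham arrays and on no UUO array, so the change is a bound: with the UUO arrays at the floor of 14.6 it was at least 3.72-fold lower in UUO. The fitted log2 fold change, with UUO at the floor, was -1.89 ± 0.20 (SE, limma adjusted p = 5.7e-05). It passed the filter through the Sham arrays alone, so this SE and adjusted p are no support for a difference. The same holds for miR-6904-5p and miR-6975-5p, which follow.

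miR-6904-5p, within Parp1, the gene of a DNA damage-sensing poly-ADP-ribose polymerase, at chr1:180587206-180587227 on the plus strand, read 17.7, 56.5, 51.2 and 50.9 in Sham and 0.5, 5.6, 6.6 and 5.9 in UUO. It was at least 2.74-fold lower in UUO (fitted log2 fold change -1.46 ± 0.35, SE, limma adjusted p = 0.0058). Sham 1 was far under the other Sham samples and close to the floor, and a fit of all miRNAs with no filter did not call it (limma adjusted p = 0.083). Its shorter probe was detected on 3 Sham arrays and on no UUO array.

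miR-6975-5p, within Ddx39b, the gene of an RNA helicase of splicing and mRNA export, at chr17:35244080-35244102 on the plus strand, gave 22.6, 38.4, 39.2 and 43.5 in Sham. The UUO kidneys gave 0.8, 3.9, 4.7 and 4.6, all below detection. It was at least 2.38-fold lower in UUO (fitted log2 fold change -1.25 ± 0.19, SE, limma adjusted p = 0.00054). These 3 passed the filter through the Sham arrays alone and so had to differ, and their UUO values all sit at the floor with no spread of their own. Their SE and adjusted p are printed as the fit gave them and are no support for a difference.

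Among members still partly or fully detected in UUO, miR-7020-5p had the clearest fall. It lies within Aldh4a1, the gene of a mitochondrial enzyme of proline breakdown, at chr4:139644047-139644070 on the plus strand. Sham kidneys gave 89.3, 74.2, 76.0 and 77.7 and UUO kidneys 50.5, 44.8, 59.8 and 57.7. The groups did not overlap, and the log2 fold change was -0.58 ± 0.10 (SE, limma adjusted p = 0.0014). This value rests on 1 probe of 15 bases: the probe that is 1 base shorter was not detected on any array.

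miR-6971-5p was near the floor, with 16.0, 26.9, 24.2 and 28.7 in Sham and 10.8, 10.1, 15.7 and 14.4 in UUO. It was detected on 3 Sham and 2 UUO arrays, and its log2 fold change was -0.65 ± 0.17 (SE, limma adjusted p = 0.0095). Doubling the floor or dropping the filter ended the call. miR-6978-5p, within C3, the gene of the central complement component, at chr17:57217201-57217223 on the minus strand, read 32.0, 23.4, 24.0 and 33.2 in Sham and 13.7, 12.2, 23.8 and 22.9 in UUO. Its groups overlapped slightly, and the log2 fold change was -0.59 ± 0.21 (SE, limma adjusted p = 0.035). The call was lost without Sham 1, Sham 8, UUO 1 or UUO 2, with an adjusted p of 0.087 in the limma fit without Sham 1. It was also lost with no scaling (limma adjusted p = 0.14), with scaling to the control features (0.21) and with the floor doubled (0.20). No filter (0.29) and the replicate number as a block (0.11) ended it too. Its UUO 1 and UUO 2 values lay under the floor and were set to it. Its shorter probe too was not detected on any array. miR-6997-5p, within Sptan1, a spectrin gene, changed by -0.22 ± 0.07 (SE, limma adjusted p = 0.017), and miR-6965-5p, within Ccnf, a cyclin gene, by -0.15 ± 0.06 (SE, limma adjusted p = 0.050). Both turned to a positive sign with scaling to the control features, at 0.06 and 0.13. The call of miR-6997-5p was lost with the percentile over all probes (-0.09, limma adjusted p = 0.35), with no scaling (-0.03, 0.77) and with no filter (0.11), and the call of miR-6965-5p was lost in 7 of the 8 fits that left out 1 array (-0.18 to -0.11), all but the one without UUO 4.

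**Figure D3:**
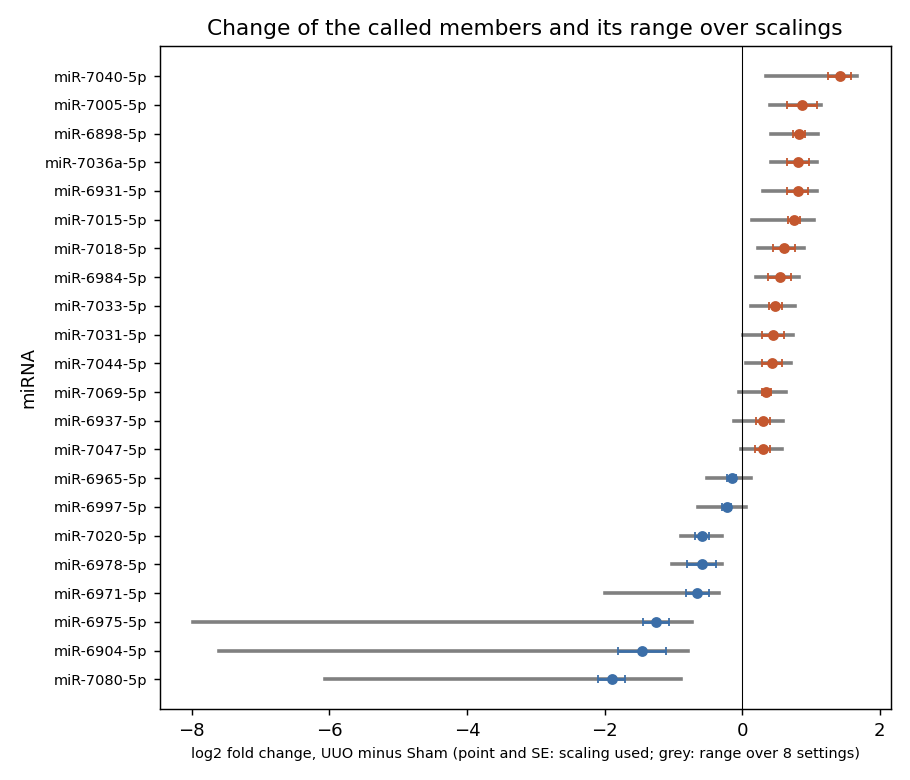
Log2 fold change, UUO minus Sham (horizontal axis), of the 22 called members with its SE (points and whiskers), and the lowest and highest value over 8 ways of scaling and summarising the arrays (grey bars). The long bars of miR-7080-5p, miR-6904-5p and miR-6975-5p reach to values from the deposited ratios, which were used without a floor. The bars of miR-6997-5p and miR-6965-5p, called lower, and of miR-6937-5p and miR-7047-5p, called higher, cross 0.

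A detection pattern, which is not a test, was also counted: 9 of the 200 members (4.5%) were detected on at least 3 Sham arrays and on no UUO array, beside 24 of all 1881 miRNAs (1.28%). The other 15 were among the 1482 other miRNAs (1.01%), and no 3p arm had the pattern. The 9 are miR-7080-5p, miR-6904-5p and miR-6975-5p, above, and miR-6918-5p, miR-6980-5p, miR-7028-5p, miR-6905-5p, miR-7055-5p and miR-6990-5p. The last 6 were each missed on Sham 1, did not pass the filter of 4 arrays, and are named here after their values were seen. The reverse pattern, at least 3 UUO arrays and no Sham array, was found in 1 member, miR-7046-5p, for which no fold is given because its UUO signals lay near the floor, and in 1.33% of all miRNAs.

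Among those 6, miR-6918-5p, within Nipsnap1, a mitochondrial protein gene, had the largest bound. It read 15.7, 45.3, 43.9 and 45.2 in Sham and 0.7, 7.1, 6.6 and 5.2 in UUO. That is at least 2.35-fold lower, with the Sham samples at their own values and UUO at the floor. The bounds of the others ran from at least 1.01-fold for miR-6990-5p to at least 1.55-fold for miR-6980-5p. miR-7055-5p, within Slc17a7, a glutamate transporter gene of neurons, read 7.0, 21.3, 20.9 and 21.6 in Sham and from -0.3 to 3.5 in UUO. In a fit of all 1881 miRNAs with no filter, in which 11.1% were called, none of the 6 was called (limma adjusted p from 0.13 to 0.36). As the 6 were picked by detection in Sham and not in UUO, p-values of this fit are no support for a difference. The same fit without Sham 1, chosen after seeing the data, called 5 of the 6 and not miR-6990-5p, beside 11.6% of all miRNAs. With the UUO values at the floor and the lowest Sham array left out, these calls are no support for a difference.

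Sham 1 was the lowest Sham array for all 9, at 0.330 to 0.641 of the mean of the other 3, and for 13 of the 15 other miRNAs with the pattern. Without Sham 1 the fitted log2 fold changes were -2.11 for miR-7080-5p, -1.85 for miR-6904-5p and -1.46 for miR-6975-5p. Leaving out the lowest Sham array had to make these changes larger, since the UUO values are fixed at the floor.

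**Figure D4:**
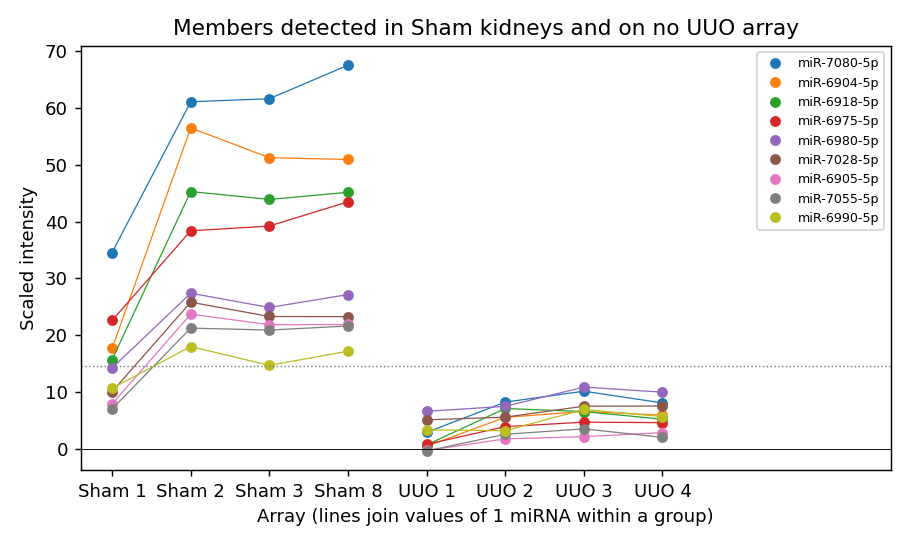
Scaled intensity (vertical axis) on each array (horizontal axis) of the 9 members detected on at least 3 Sham arrays and no UUO array, 1 colour per miRNA, with the floor of 14.6 dotted. In every one Sham 1 is the lowest Sham value, and all UUO values are under the floor.

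The probes of these 9 are shown as deposited, 5′ to 3′, because they share letters that the pattern did not use. The capitals mark AACC, which corresponds to GGUU in the miRNA.

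miR-7080-5p: ccaAACCcacctcc
miR-6904-5p: ccactcaactctAACCc
miR-6975-5p: tgccaAACCcctttc
miR-6918-5p: agAACCtaatcccgtcc
miR-6980-5p: ctAACCtagcctcccc
miR-6905-5p: tcattcAACCcAACCtg
miR-7055-5p: ccaactcagatAACCc
miR-7028-5p: ctcctgacccaag
miR-6990-5p: agagccctgactcacc

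AACC was found in 7 of the 9, in 21 of the 200 members' representative probes (10.5%), and in 108 of all 1881 (5.74%). The opposite strand, GGTT, was in none of the 9. The letters were chosen after the values were seen, so the count is a description with no test. Of the 15 other miRNAs with the same detection pattern, 5 held AACC. Of the 14 other members with AACC, 3 were detected on at least 4 arrays, and 1 of these, miR-7015-5p, went the other way, higher in UUO.

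Of the 10 members with the strongest probe signal, 5 were called, all higher in UUO, beside 39.7% of all 408 called higher. miR-7047-5p, the strongest, read 546.0, 443.5, 421.6 and 433.6 in Sham and 644.2, 504.1, 537.7 and 580.7 in UUO, with Sham 1 inside the UUO range, and its log2 fold change was 0.30 ± 0.11 (SE, limma adjusted p = 0.034). miR-6937-5p read 252.1, 208.4, 194.7 and 198.3 in Sham and 295.8, 236.1, 251.7 and 268.6 in UUO, a log2 fold change of 0.30 ± 0.10 (SE, limma adjusted p = 0.027). The value of miR-6937-5p rests on 1 probe of 15 bases. Its probe of 14 bases was detected on 0 Sham and 3 UUO arrays, with means of 10.6 and 14.1. With values under the floor set to it, that probe changed by 0.06 on the log2 scale. The representative probes of miR-7047-5p and miR-6937-5p share the 12-base run CAGACCCAGCCC, and whether each probe also reads the other miRNA was not tested. Their sequences, seed in capitals, show the shared ending.

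miR-7047-5p: uGAGGGAGgagggcugggucuga
miR-6937-5p: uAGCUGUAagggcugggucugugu

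Both calls were lost without Sham 2, Sham 3, Sham 8, UUO 1 or UUO 4, with log2 fold changes from 0.25 to 0.39 for miR-6937-5p and from 0.24 to 0.38 for miR-7047-5p over the 8 fits that left out 1 array, and the total intensity gave -0.03 for miR-6937-5p and -0.02 for miR-7047-5p. Of the strongest 10, miR-6931-5p, miR-7005-5p and miR-6898-5p were described above, and the other 5 were not called. Their log2 fold changes were 0.17 for miR-7042-5p (limma adjusted p = 0.47), 0.17 for miR-6908-5p (0.13), 0.19 for miR-7082-5p (0.14), 0.04 for miR-7011-5p (0.67) and 0.11 for miR-7045-5p (0.52). Each of these 5 was negative with quantile normalization. That setting called miR-6908-5p, miR-7082-5p and miR-7011-5p lower (limma adjusted p = 0.0045, 0.043 and 0.0052). Scaling to the control features called the same miRNAs higher (0.0024, 0.0077 and 0.019), and also miR-7045-5p (0.049). Their direction thus depended on the scaling. miR-7042-5p shows the spread within a group: it read from 195.5 to 327.9 in Sham and from 214.3 to 344.8 in UUO.

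The members tended to be high or low on the same arrays of a group. Sham 1 was the highest Sham array for 36 of the 46 tested members (78.3%), and for 138 of the 362 other tested miRNAs (38.1%). UUO 2 was the lowest UUO array for 28 of the members (60.9%) and for 20.2% of the others, of which 49.4% had it as the highest. Members detected on all 8 arrays had Sham 1 highest in 28 of 32 cases and UUO 2 lowest in 25 of 32. The members' median distance of Sham 1 from the mean of the other Sham arrays was 0.29 on the log2 scale, and that of UUO 2 from the other UUO arrays was -0.21. The 9 members lost in UUO went against this, with Sham 1 lowest. Without Sham 1, 15 of the 46 members were called higher and 6 lower, beside 41.9% and 27.5% of all 408. Without UUO 2 the counts were also 15 and 6, beside 40.2% and 28.7%. The difference between members and other miRNAs was not tested, because members share the arrays and are not replicates.

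**Figure D5:**
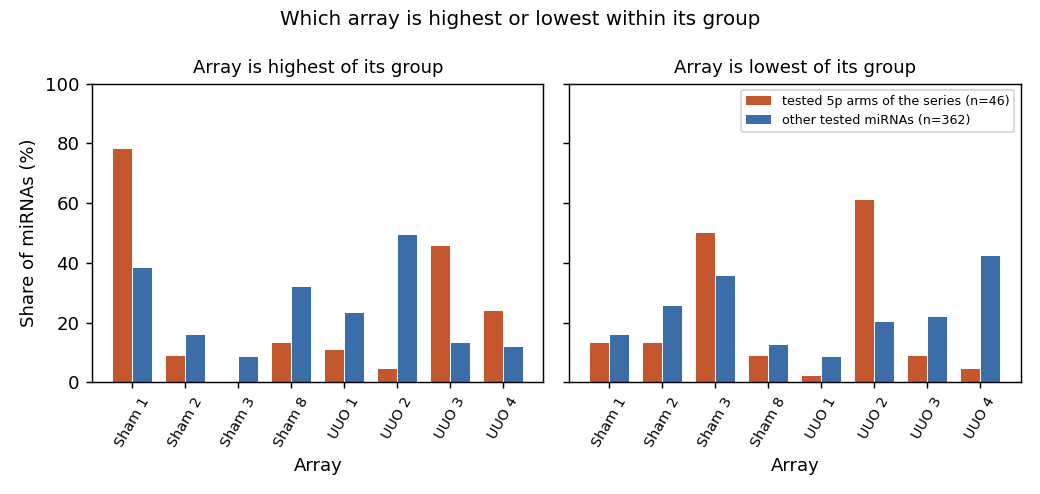
Share of tested miRNAs (vertical axis, percent) for which each array (horizontal axis) was the highest (left) or lowest (right) of its group of 4, for the 46 tested members and the 362 other tested miRNAs. Sham 1 is the highest Sham array for 78.3% of the members, and UUO 2 the lowest UUO array for 60.9%.

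Well-studied mirtrons outside the series were read for comparison. miR-877-5p was called higher: it gave 30.0, 20.2, 21.8 and 14.5 in Sham and 84.0, 60.6, 41.0 and 62.4 in UUO, a log2 fold change of 1.52 ± 0.26 (SE, limma adjusted p = 0.0012). miR-1224-5p was also called higher, from 1084 to 2073 in Sham to 1881 to 3127 in UUO, a log2 fold change of 0.87 ± 0.23 (SE, limma adjusted p = 0.010), with Sham 1 highest and UUO 2 lowest in its group. On the total intensity its change was 0.60 (limma adjusted p = 0.064), and it was not called there. miR-702-3p was detected on 2 Sham and 4 UUO arrays, near the floor, and was not called, at -0.02 ± 0.06 (SE, limma adjusted p = 0.73). miR-877-3p, miR-1224-3p and miR-702-5p were not detected on any array. As in most of the detected series, the 5p arm of miR-877 and of miR-1224 was the arm detected, while for miR-702 it was the 3p arm.

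The probe design limits how far single members can be read. The probes were 10 to 21 bases long, and 190 members had 2 nested probes, differing by 1 base where compared here. All probes were detected on at least 4 arrays for 31 of the 46 tested members, and for 15 at least 1 probe was not. The first number of the range gave no signal to describe: miR-6896-5p was not detected on any array.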

How the data were processed

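Total RNA of 4 Sham and 4 UUO kidneys was labelled with Cy3 and hybridised to 1-colour Agilent mouse miRNA arrays. Per the file headers, the authors' scanner files hold spot intensity from Feature Extraction 10.7.3.1, and gProcessedSignal is corrected for background and not scaled between arrays. The authors' deposited value table holds a ratio per miRNA: the software's total intensity times 1 factor per array, divided by 1 value per miRNA of unstated basis. It served as an alternative.

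Outlier spots (2.64% to 2.95% per array) were left out and spots of a probe averaged. Each array was divided by the 75th percentile over 623 probes, and miRNAs detected on at least 4 of 8 arrays were tested on log2 values with limma 3.58.1 (R 4.3.3, lmFit and eBayes), with no covariate. The test was checked on simulated data. The precision is limited by 4 arrays per group. Named members were the up to 10 largest called changes in each direction, those detected on 4 arrays of 1 group and 0 of the other, and the 10 strongest signals. The range of numbers that defines the members and the lists were chosen with earlier results of these data known. Alternatives covered scaling, background, probe summary, floor, filter, detection, blocks and left-out arrays. Sham 1 to 3 and UUO 1 to 3 share numbers, and the labels do not say whether these mark pairs. Their deviations from the group means correlated at -0.0008, 0.12 and -0.30, within the range of unlike numbers, -0.45 to 0.38. With so few arrays this cannot settle pairing, and the samples were treated as unpaired.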

Additional observations from a re-analysis of the deposited data

Results flagged for a closer look

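In 5 of 46 groups of 4 arrays checked, those with no value at the floor, 1 sample stood apart from the other 3 by more than Dixon's 95% critical value (the gap to the nearest sample divided by the whole range, on the log2 scale). Chance gives about 1 in 20. Sham 1 was the sample in 4 of the 5. For miR-6898-5p Sham 1 read 120.7 against 97.3 to 99.1 (0.915), and for miR-7018-5p 69.9 against 45.1 to 45.7 (0.970). For the members lost in UUO it was low: miR-7080-5p read 34.6 on Sham 1 against 61.1 to 67.5 (0.850), and miR-6904-5p 17.7 against 50.9 to 56.5 (0.911). For miR-7036a-5p UUO 2 read 89.7 against 120.7 to 123.1 (0.936).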

How the results depend on the processing

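Of the 22 called members, 15 kept their call and 7 lost it in at least 1 of the 8 fits that left out 1 array. The count of members called higher, 14, fell to 6 with quantile normalization, 7 with the total intensity, 7 with the deposited ratios, 9 with the floor doubled, 7 with no filter, and 8 with no filter and without Sham 1. Leaving out 1 array gave 9 to 15, with 9 without Sham 2 or without UUO 4. The count called lower, 8, was 5 with no scaling, 19 with quantile normalization, 5 with scaling to the control features, 21 with normexp, 24 with the total intensity, 21 with the deposited ratios, 3 with no filter and 2 with detection on all 8 arrays required. It was 6 to 8 with 1 array left out. With the shared replicate number as a block, 11 were called higher and 3 lower. Among all 408 miRNAs the block also lowered both counts, which were 162 and 113 without it. All tested miRNAs gave 129 higher and 98 lower of 408 with the floor doubled, and 123 and 86 of 1881 with no filter. They gave 135 and 97 of 335 with detection on all 8 arrays required, and 118 and 207 of 499 with the deposited ratios. Members tested numbered 200 with no filter, 32 with all 8 arrays required and 57 with the deposited ratios. The members' median change was -0.38 with the total intensity, -0.34 with the deposited ratios, and -0.04 to 0.13 with 1 array left out. Detection needing all spots gave means of 40 members in Sham and 35.5 in UUO, and the software's own call 60.75 and 51.5. Detected members numbered 39 and 57 by these rules.

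Signs turned for miR-6997-5p (0.061 with the control features) and miR-6965-5p (0.041 with no scaling, 0.13 with the control features). With quantile normalization the changes were -0.15 for miR-7042-5p, -0.12 for miR-6937-5p, -0.27 for miR-6908-5p, -0.23 for miR-7082-5p, -0.31 for miR-7011-5p and -0.23 for miR-7045-5p. With the total intensity they were -0.016 for miR-7047-5p, -0.094 for miR-7042-5p, -0.028 for miR-6937-5p, -0.13 for miR-6908-5p, -0.16 for miR-7082-5p, -0.27 for miR-7011-5p and -0.19 for miR-7045-5p. With the deposited ratios they were -0.054 for miR-7042-5p, -0.091 for miR-6908-5p, -0.12 for miR-7082-5p, -0.23 for miR-7011-5p and -0.15 for miR-7045-5p. miR-7011-5p was also negative with normexp (-0.023), with all spots required (-0.023) and without Sham 3, and ran from -0.0082 to 0.10 over the fits that left out 1 array. The cause of these turns was not tested. Signal near the floor limits miR-7040-5p, miR-6971-5p, miR-6978-5p and the members lost in UUO.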
